A study of Mus musculus with 6 samples.

Results

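The enzymes of mitochondrial and peroxisomal β-oxidation were followed as a gene module of 33 members, taken by gene symbol from the 16448 genes in the expression table of ventricular cardiomyocytes (CMs). The list holds 8 acyl-CoA dehydrogenases, 3 electron transfer genes, 6 mitochondrial hydratases, dehydrogenases and thiolases, 5 auxiliary enzymes for unsaturated chains, 7 peroxisomal transporters and β-oxidation enzymes, and 4 enzymes of peroxisomal α-oxidation and related steps. RNA sequencing was done on 3 CtrlCre and 3 Cpt1bcKO samples of adult CMs from C57BL/6 mice aged 8 to 12 weeks. CtrlCre mice were αMHC-Cre pos/+ with wild-type *Cpt1b*, and Cpt1bcKO mice were αMHC-Cre pos/+ with *Cpt1b* fl/fl, so that every sample of both groups carried the Cre transgene. The αMHC (*Myh6*) promoter drives recombination in CMs from embryonic stages onwards, and the comparison is therefore between adult cells with a long-standing loss of the gene and adult cells that kept it. CMs were isolated by enzymatic perfusion, and nothing in the labels says how many hearts went into a sample.

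*Cpt1b* encodes the muscle form of carnitine palmitoyltransferase 1, which loads long-chain fatty acids onto carnitine at the outer mitochondrial membrane. Inside the matrix, acyl-CoA is shortened in repeated rounds of dehydrogenation, hydration, a further dehydrogenation and thiolytic cleavage, and the electrons of the first dehydrogenation pass through the electron transfer flavoprotein to ubiquinone. Peroxisomes run a related pathway that handles very long, branched and bile acid side chains and does not depend on the carnitine shuttle for entry. The adult heart draws most of its fuel from mitochondrial β-oxidation, and the comparison asks how the RNAs of these enzymes stand when the entry step is missing.

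Values are normalized counts, which are gene counts scaled between libraries and rounded to whole numbers. They summed to between 13393411 and 31722217 per sample, and mitochondrially encoded and ribosomal RNA genes made up 74.8 to 78.1% of the sum in the controls and in Cpt1bcKO sample 1 but 83.8 and 89.5% in Cpt1bcKO samples 2 and 3. The remaining sum was 3146414 to 3551692. *Cpt1b* itself was at 1861, 893 and 1443 normalized counts in CtrlCre samples 1 to 3 and at 211, 353 and 285 in Cpt1bcKO samples 1 to 3, which matched the labels (log2 fold change −2.27, adjusted *P* = 0.00338, limma with Benjamini–Hochberg adjustment). All 10 CM markers were detected, with summed levels of 587936 to 694383 in CtrlCre and 382121 to 614438 in Cpt1bcKO. All 10 had a negative fold change (median −0.44 on the log2 scale), whereas 49.8% of all genes tested had a positive one. At an unadjusted *P* below 0.05, 3 were lower, beside 7.22% of all genes tested. None of the 5 adipocyte markers was listed. The 9 fibroblast markers summed to 507 to 809 in CtrlCre and 1122 to 1377 in Cpt1bcKO. Of these, 7 of the 8 that could be tested were higher at an unadjusted *P* below 0.05, beside 6.66% of all genes tested. *Col1a1* and *Lum* also passed an adjusted *P* of 0.05 (0.0143 each, limma). The 8 endothelial markers summed to 1201, 2297 and 2514 in CtrlCre samples 1 to 3. In Cpt1bcKO samples 1 to 3 they summed to 2518, 2589 and 2217, so that only CtrlCre sample 1 lay far below the rest. All 8 had a positive fold change (median 0.34 on the log2 scale), beside 49.8% of all genes tested. At an unadjusted *P* below 0.05, 1 was higher, beside 6.66%. The 9 leukocyte and macrophage markers summed to 145 to 254 in CtrlCre and 185 to 202 in Cpt1bcKO. For the 6 mural markers the sums were 582 to 1909 and 1042 to 1509. Both lists overlapped between the groups, and 0 of their genes passed an unadjusted *P* of 0.05. The part of any differences in cell content in the results that follow was not tested. In bulk RNA, fewer cells of a type and less RNA per cell cannot be told apart.

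With all 6 samples and no blocking by sample number, none of the β-oxidation genes passed an adjusted *P* of 0.05. The 4 with the smallest *P* values were higher in Cpt1bcKO CMs by 1.29 to 1.47 times. Of the 33 members, 32 passed the filter of 10 normalized counts in at least 3 samples and were tested, the exception being *Acad10*. The smallest adjusted *P* was 0.239 (limma, Benjamini–Hochberg over 11364 genes), whereas over all genes tested 0.66% were higher and 0.906% were lower at that threshold, 1.57% in either direction. At an unadjusted *P* below 0.05, 4 members were higher (12.5%) and 0 were lower, beside 6.66% higher, 7.22% lower and 13.9% in either direction over all genes. These 4 were *Hadhb*, *Decr2*, *Acad9* and *Hsd17b4*. In 8 members (25.0%) the 3 values of one group lay entirely above those of the other, 7 with Cpt1bcKO on top and 1 with CtrlCre on top, beside 9.13%, 9.6% and, for either direction, 18.7% of all genes. A fold change above 0, whatever its size, was seen in 20 of the 32 (62.5%) and in 49.8% of all genes. The median log2 fold change was 0.079 over the members and −0.0013 over all genes tested. Fold changes are differences of log2(normalized count + 1), which understates the change of genes with low values. When samples were blocked by their number, 3 members passed an adjusted *P* of 0.05 in limma (*Hadhb*, *Decr1* and *Phyh*), beside 5.31% of all genes.

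**Figure D1:**
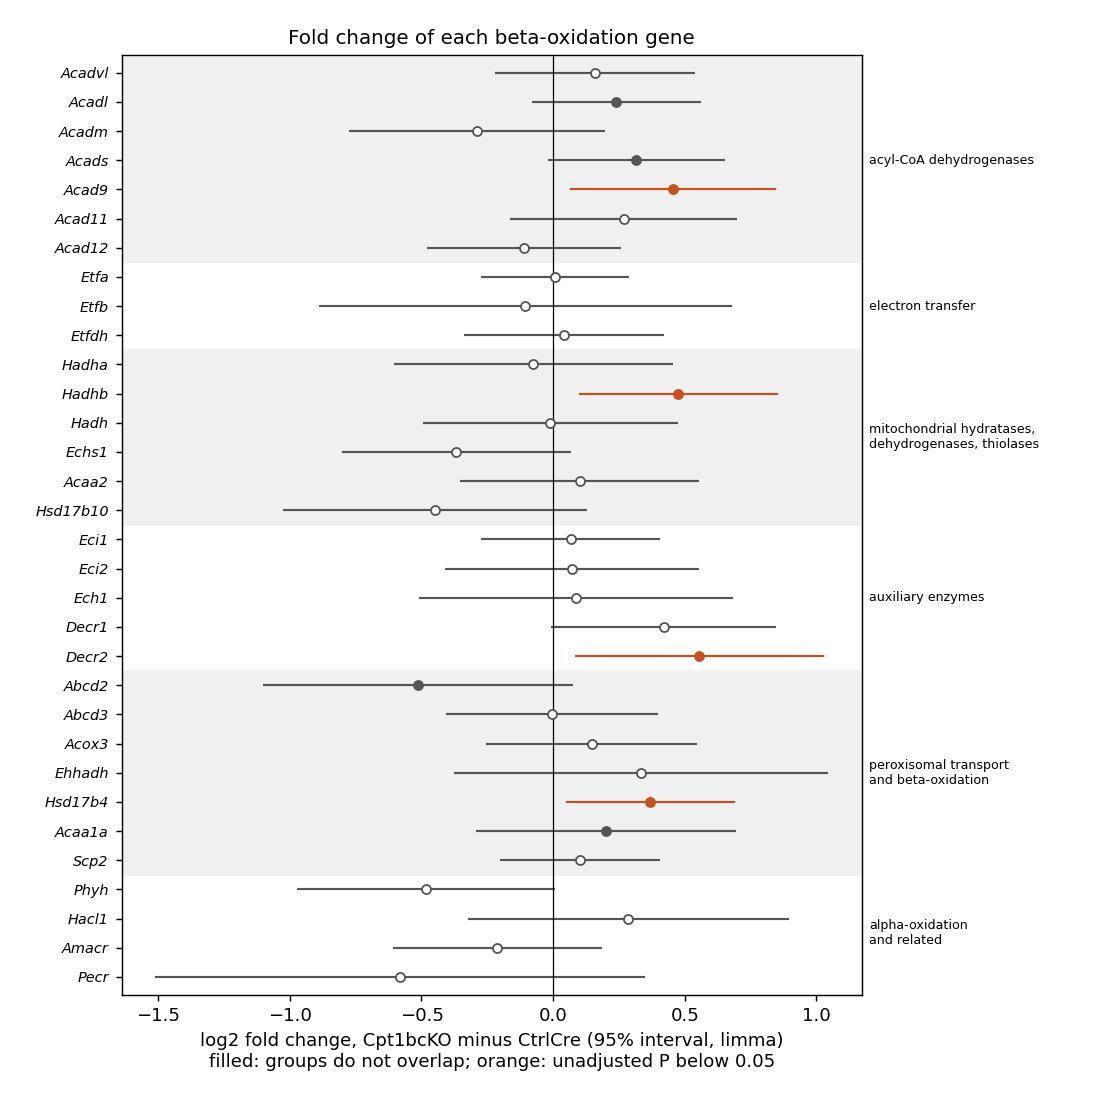
Log2 fold change (Cpt1bcKO minus CtrlCre) of the 32 tested β-oxidation genes, by enzymatic role; points are estimates and bars 95% intervals from limma. Orange marks an unadjusted *P* below 0.05 and a filled point marks groups without overlap, and the 4 orange intervals, those of *Acad9*, *Hadhb*, *Decr2* and *Hsd17b4*, lie above 0.

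The acyl-CoA dehydrogenases catalyse the first step of each round and differ in the chain length they accept. Of the 7 tested, 5 had a positive and 2 a negative fold change, with a median of 0.24 on the log2 scale, and the groups of *Acadl*, *Acads* and *Acad9* did not overlap (over all genes, 49.8% were positive and 18.7% did not overlap, shares that also apply beside the counts by role that follow). *Acad9*, which encodes an acyl-CoA dehydrogenase that also serves as an assembly factor of respiratory complex I (chr3:36065979-36092853, GRCm38), was at 108, 106 and 90 normalized counts in CtrlCre and at 129, 148 and 140 in Cpt1bcKO. All 3 Cpt1bcKO samples stood above all 3 controls. Its log2 fold change was 0.45 ± 0.18 (SE; adjusted *P* = 0.278).

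*Acadl*, the long-chain enzyme of the rodent heart (chr1:66830839-66863277), had 6832, 6589 and 5607 normalized counts in CtrlCre and 7519, 7825 and 7058 in Cpt1bcKO. The groups were apart, although the gap was narrow, and the fold change of 0.24 ± 0.14 (SE, log2) did not pass the test (adjusted *P* = 0.497). *Acads*, the short-chain enzyme (chr5:115110299-115119346), was at 241, 212 and 228 against 293, 297 and 259, again without overlap, with a fold change of 0.32 ± 0.15 (SE, log2; adjusted *P* = 0.386). The medium-chain enzyme *Acadm* differed from these in sign. It was at 5087, 3556 and 3498 in CtrlCre and at 4481, 2781 and 2776 in Cpt1bcKO, and sample 1 was the highest of its group in both (log2 fold change −0.29 ± 0.22 (SE), adjusted *P* = 0.599).

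*Acadvl*, the very-long-chain enzyme of the inner membrane, was at 1608, 1577 and 1252 against 2014, 1559 and 1408, and its groups overlapped (log2 fold change 0.16 ± 0.17 (SE), adjusted *P* = 0.732). Of its exonic bases, 42.9% also belong to *Dvl2* on the opposite strand, and *Dvl2* itself was listed at 8 to 19 normalized counts. *Acad11*, which acts on very long chains, stood at 0.27 on the log2 scale (adjusted *P* = 0.584), and *Acad12* one of −0.11 (adjusted *P* = 0.815). *Acad10* was at 9, 5 and 6 in CtrlCre and at 7, 24 and 8 in Cpt1bcKO, too low for the filter, with 1 sample above the rest.

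Electron transfer flavoprotein is a dimer of the products of *Etfa* and *Etfb*, and *Etfdh* encodes the oxidoreductase that hands its electrons to ubiquinone. Among the 10 members highest per kilobase, *Etfa* varied least within both groups (coefficient of variation 6.15% and 2.85%). Its normalized counts were 1608, 1713 and 1515 in CtrlCre and 1597, 1672 and 1588 in Cpt1bcKO, a log2 fold change of 0.0077 with a 95% interval of −0.27 to 0.29. *Etfdh* was at 4463, 4225 and 3572 against 4783, 4552 and 3359, with overlapping groups and an interval of −0.34 to 0.42 around a log2 fold change of 0.040. *Etfb* was listed at only 22, 18 and 39 against 26, 25 and 19. In GENCODE vM21, 58.2% of the exonic bases of *Etfb* also belong to *Gm45233* and *Mir7051* on the same strand, and reads that overlap several genes were left out of the counts, so that with this annotation the value would cover a part of the transcript only. The ratio of *Etfa* to *Etfb* was 38.9 to 95.2 in CtrlCre and 61.4 to 83.6 in Cpt1bcKO, and the groups overlapped (exact permutation test, 2-sided, *P* = 0.9, the smallest that 3 against 3 can give being 0.1).

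The mitochondrial trifunctional protein carries the hydratase, 3-hydroxyacyl-CoA dehydrogenase and thiolase steps for long chains. Its α subunit is encoded by *Hadha* (chr5:30118304-30155162, minus strand) and its β subunit by *Hadhb* (chr5:30155248-30184593, plus strand), which lie head to head with 85 bases between the annotated starts. That shared stretch is shown because it separates *Hadhb*, the member with the smallest *P*, from *Hadha*, whose groups overlapped. It is given on the *Hadhb* strand from RefSeq (GRCm38.p6, chr5:30155163-30155247), with capitals on the GC box letters GGGCGG on either strand.
Hadha-Hadhb interval: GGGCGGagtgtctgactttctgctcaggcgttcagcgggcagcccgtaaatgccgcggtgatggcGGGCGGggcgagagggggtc

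*Hadhb* was at 2600, 2942 and 2131 normalized counts in CtrlCre and at 3420, 4176 and 3063 in Cpt1bcKO. Every Cpt1bcKO sample exceeded every control, with a log2 fold change of 0.47 ± 0.17 (SE; 95% interval 0.097 to 0.85; adjusted *P* = 0.239). *Hadha* was at 8854, 6729 and 5720 against 9019, 6714 and 4811. These values overlapped fully, and the log2 fold change was −0.075 with a 95% interval of −0.60 to 0.45. The ratio of *Hadha* to *Hadhb* within a sample, which does not depend on scaling between libraries, was 3.41, 2.29 and 2.68 in CtrlCre and 2.64, 1.61 and 1.57 in Cpt1bcKO. On the log2 scale it was lower by 0.55 in Cpt1bcKO, and by 0.40 to 0.79 with any 1 sample left out, although the groups overlapped. The exact permutation test gave *P* = 0.2 (2-sided), but with 3 against 3 it cannot go below 0.1, so that it could not have passed. In the annotation, 16.7% of the 75-base stretches of *Hadhb* transcripts also occur in other genes, mainly the pseudogenes *Gm13910* and *Gm9108*, and reads aligning to several regions were not counted.

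The other matrix enzymes of the later steps did not pass the test. *Acaa2*, the 3-ketoacyl-CoA thiolase, was at 2932, 2501 and 1890 in CtrlCre and at 3101, 2740 and 2012 in Cpt1bcKO, with a log2 fold change of 0.10 ± 0.20 (SE, adjusted *P* = 0.867). *Echs1*, the short-chain enoyl-CoA hydratase, was at 1317, 979 and 1010 against 1095, 819 and 676 (log2 fold change −0.37 ± 0.20 (SE), adjusted *P* = 0.438). *Hsd17b10*, a dehydrogenase of isoleucine and branched-chain acyl-CoA breakdown that is also a subunit of mitochondrial RNase P, had the lowest estimate of the group, −0.45 ± 0.26 (SE, adjusted *P* = 0.476). With any 1 sample left out it was −0.69 to −0.21. The rank did not hold throughout, since without CtrlCre sample 1 *Echs1* was lower, at −0.23 against −0.21. *Hadh*, the short-chain 3-hydroxyacyl-CoA dehydrogenase, stood at −0.012 with an interval of −0.50 to 0.47. Over the 6 genes of these steps, 2 fold changes were positive and 4 negative, with a median of −0.044.

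**Figure D2:**
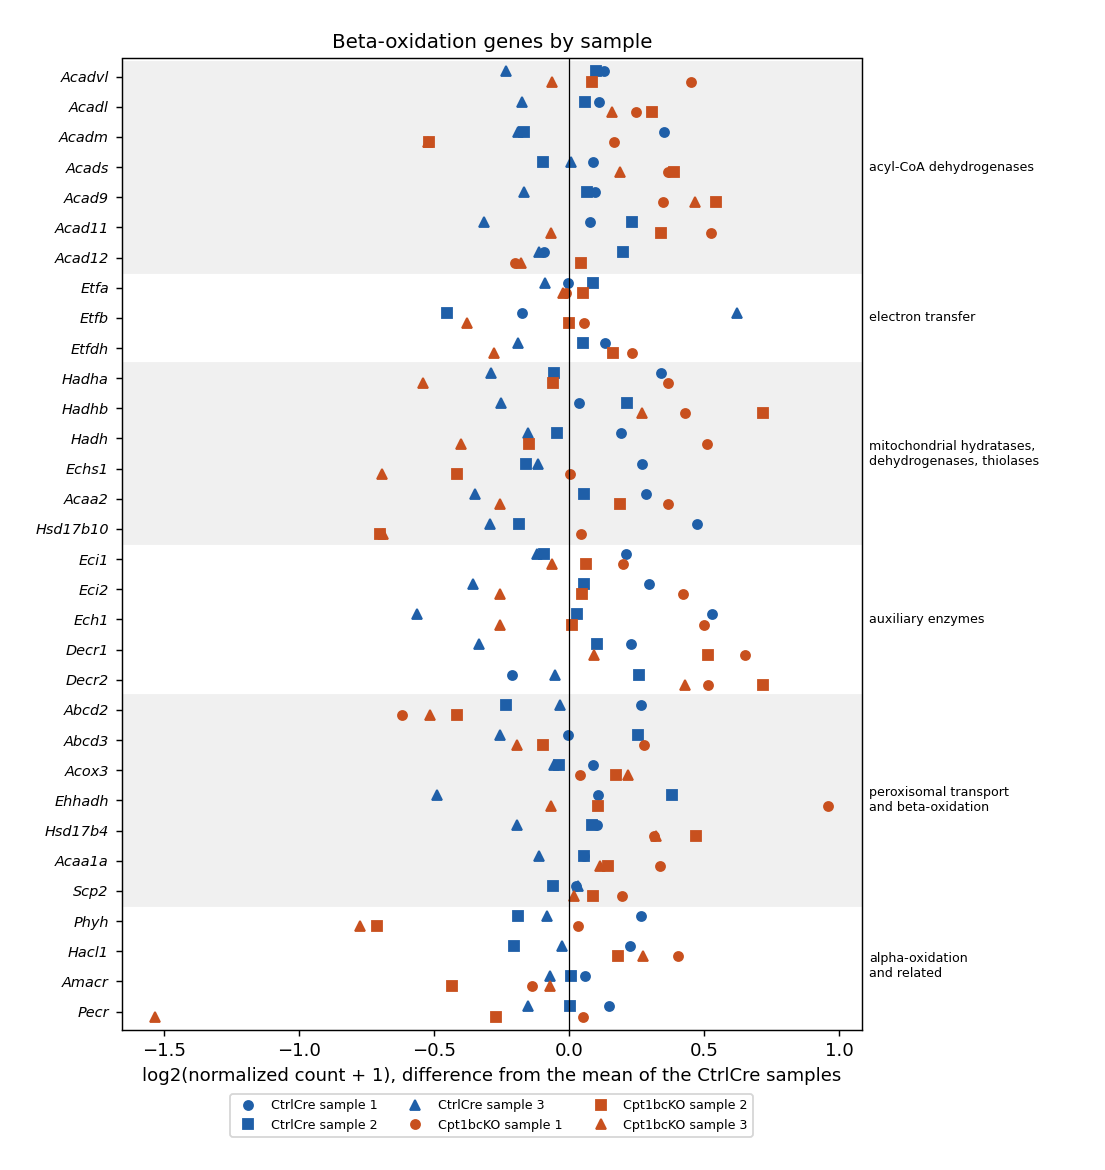
Each tested β-oxidation gene in each of the 6 samples, as the difference of log2(normalized count + 1) from the mean of the 3 CtrlCre samples; blue symbols are CtrlCre, orange symbols Cpt1bcKO, and the shape gives the sample number. Circles (sample 1) lie to the right in many rows of both colours, and the orange symbols of *Acad9*, *Hadhb*, *Decr2* and *Hsd17b4* all lie to the right of the blue ones.

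Double bonds in natural fatty acids need auxiliary enzymes. All 5 of these had a positive fold change (median 0.085 on the log2 scale), although only *Decr2* reached an unadjusted *P* below 0.05. *Decr2*, the peroxisomal 2,4-dienoyl-CoA reductase (chr17:26081211-26090300), was at 51, 71 and 57 normalized counts in CtrlCre and at 85, 98 and 80 in Cpt1bcKO. Its groups did not overlap, and with a log2 fold change of 0.56 ± 0.21 (SE; adjusted *P* = 0.274) it had the highest estimate of all members, at a low level. That rank did not hold throughout, since without CtrlCre sample 1 *Decr1* was higher, at 0.53 against 0.45. *Decr1*, the mitochondrial 2,4-dienoyl-CoA reductase, was at 1902, 1744 and 1288 in CtrlCre and at 2553, 2318 and 1731 in Cpt1bcKO. Cpt1bcKO samples 1 and 2 stood above all controls, but sample 3 lay below CtrlCre samples 1 and 2, and the test gave a log2 fold change of 0.42 ± 0.19 (SE, adjusted *P* = 0.367). *Ech1*, which moves double bonds in dienoyl-CoA, was among the most variable of the abundant members, at 1981, 1400 and 929 against 1940, 1381 and 1149 (log2 fold change 0.085, 95% interval −0.51 to 0.68). The enoyl-CoA isomerases *Eci1* and *Eci2* had log2 fold changes of 0.067 and 0.072, with intervals of −0.27 to 0.41 and −0.41 to 0.55.

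In peroxisomes, ABC transporters bring acyl-CoA across the membrane, acyl-CoA oxidases take the first step, bifunctional enzymes the next, and thiolases cleave. The 7 genes of this group had a median log2 fold change of 0.15, 5 positive and 2 negative. *Hsd17b4*, the D-bifunctional enzyme (chr18:50128201-50196269), was at 515, 509 and 420 normalized counts in CtrlCre and at 597, 664 and 599 in Cpt1bcKO. The groups were apart, with a log2 fold change of 0.37 ± 0.15 (SE; adjusted *P* = 0.284). *Ehhadh*, the L-bifunctional enzyme and a classical target of PPARα in liver, was at 61, 74 and 40 against 111, 61 and 54, so that 1 Cpt1bcKO sample stood above the rest and the others lay within the control range (log2 fold change 0.33 ± 0.32 (SE), adjusted *P* = 0.692).

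*Acaa1a*, the peroxisomal thiolase (chr9:119341294-119350299), was at 45, 45 and 40 in CtrlCre and at 55, 48 and 47 in Cpt1bcKO, without overlap, but at this depth the log2 fold change of 0.20 ± 0.22 (SE) could not be told from 0 (adjusted *P* = 0.742). *Abcd2*, the transporter of very long and polyunsaturated acyl-CoA (chr15:91145884-91191807), was the only member with all Cpt1bcKO values below all controls. It was at 47, 33 and 38 against 25, 29 and 27 (log2 fold change −0.51 ± 0.27 (SE), adjusted *P* = 0.423). *Abcd3*, *Acox3* and *Scp2*, whose product combines a thiolase with a sterol carrier domain, had log2 fold changes of −0.0045, 0.15 and 0.10 and overlapping groups. For *Scp2*, 25.6% of the 75-base stretches recur in other genes, chiefly the pseudogene *Scp2-ps2*.

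**Figure D3:**
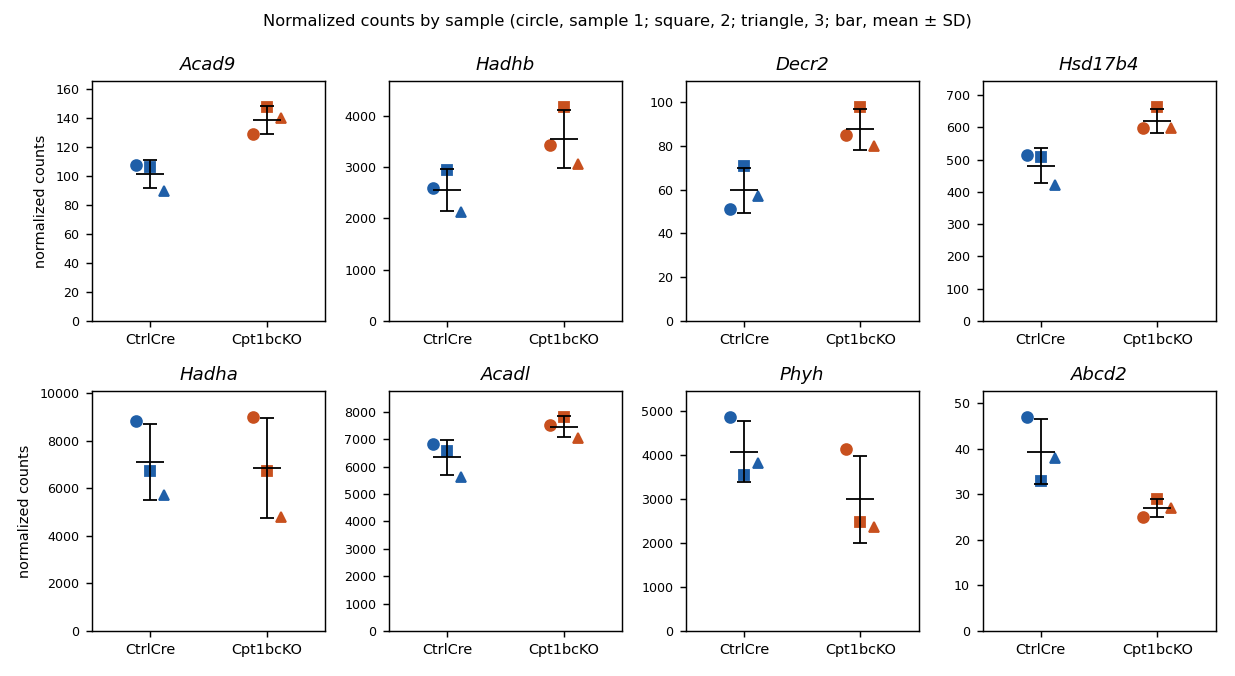
Normalized counts of 8 β-oxidation genes in each sample (linear axes from 0); symbols give the sample number, and black bars the mean ± SD of 3 samples. The 2 groups are apart for *Acad9*, *Hadhb*, *Decr2*, *Hsd17b4*, *Acadl* and *Abcd2*, and they overlap for *Hadha* and *Phyh*.

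α-Oxidation removes 1 carbon from 3-methyl-branched chains such as phytanic acid, so that they can enter β-oxidation. Its first enzyme, phytanoyl-CoA hydroxylase, is a dioxygenase that uses α-ketoglutarate and is encoded by *Phyh* (chr2:4919019-4938730). *Phyh* was at 4863, 3544 and 3813 normalized counts in CtrlCre and at 4134, 2465 and 2364 in Cpt1bcKO. Cpt1bcKO samples 2 and 3 lay below all controls, whereas sample 1 lay among them, and the log2 fold change was −0.48 ± 0.22 (SE; adjusted *P* = 0.366). Among samples 2 and 3 of each group alone it was −0.61 with an adjusted *P* of 0.0325, and without Cpt1bcKO sample 1 alone it was −0.74 with an adjusted *P* of 0.0388. With any other single sample left out it was −0.58 to −0.34, at adjusted *P* values of 0.424 to 0.750, the smallest size being that without Cpt1bcKO sample 3. *Hacl1*, the lyase that follows in α-oxidation, was at 22 to 30 in CtrlCre and 29 to 34 in Cpt1bcKO (log2 fold change 0.29, adjusted *P* = 0.693). Of its exonic bases, 31.1% also belong to *Gm49387* on the same strand. *Amacr*, the racemase that prepares branched chains, and *Pecr*, a trans-2-enoyl-CoA reductase, had log2 fold changes of −0.21 (adjusted *P* = 0.648) and −0.58 (adjusted *P* = 0.582), the latter with 1 Cpt1bcKO sample at 9 and the rest of that group at 23 and 29. Of these 4 genes, 3 had a negative fold change and the median was −0.35.

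Sorted by compartment, the 17 tested mitochondrial members had a median log2 fold change of 0.040 with 2 (11.8%) higher at an unadjusted *P* below 0.05, beside 6.66% of all genes. The 11 peroxisomal members had a median of 0.15, also with 2 (18.2%) higher. No difference between the compartments was tested. The mean over all 32 members, as the log2 difference from the control mean, was 0.15, 0.012 and −0.16 in the CtrlCre samples and 0.25, 0.050 and −0.16 in the Cpt1bcKO samples. The module as a whole thus overlapped between the genotypes.

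Sample 1 was the highest of its group for 23 of the 32 members in CtrlCre and for 21 in Cpt1bcKO. For 16 members it was highest in both, beside 23.1% of all genes. Sample 1 of each group also had 957 and 1080 normalized counts of *Xist* and 0 of the Y-linked *Ddx3y* in both, whereas the other samples had 23 to 78 of *Xist* and 576 to 710 of *Ddx3y*. For sample 1 of each group, sample number and sex, which the labels do not give, therefore cannot be told apart, and their part in the levels was not tested. With samples 2 and 3 of each group alone, 16 members did not overlap, beside 47.2% of all genes, a comparison of 2 against 2 in which separation is common. In that fit, 4 members were higher at an unadjusted *P* below 0.05, beside 8.25% of all genes, and 4 were lower, beside 9.51%. Those higher were *Hadhb*, *Hsd17b4*, *Acad9* and *Decr1*, with log2 fold changes of 0.51, 0.45, 0.55 and 0.42. Those lower were *Phyh*, *Echs1*, *Acadm* and *Hsd17b10*, at −0.61, −0.42, −0.34 and −0.46. *Decr2*, at 0.47, no longer passed that threshold (unadjusted *P* = 0.0833, adjusted *P* = 0.356, limma). Of the full set of members, 0 were higher at that threshold without CtrlCre sample 3, beside 5.82% of all genes, or without Cpt1bcKO sample 2, beside 3.94%. With any 1 sample left out, the log2 fold changes of the 4 genes called in the full comparison were 0.35 to 0.58 for *Hadhb*, 0.45 to 0.69 for *Decr2*, 0.37 to 0.51 for *Acad9* and 0.27 to 0.42 for *Hsd17b4*. The groups of these genes did not overlap, so that leaving out 1 sample could not have turned the sign.

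Levels per kilobase of exon spanned more than 3 orders of magnitude on the log axis. In CtrlCre the order began with *Acadl* at 3163 ± 324 normalized counts per kilobase (SD, n = 3), *Phyh* at 2152 ± 368, *Acaa2* at 1610 ± 345 and *Acadm* at 1034 ± 230. *Etfa* followed at 879 ± 54.0, *Hadha* at 813 ± 183, *Ech1* at 629 ± 231 and *Acadvl* at 551 ± 73.4. At the lower end stood *Acaa1a* at 9.82, *Acox3* at 7.75, *Abcd2* at 6.62, *Hacl1* at 5.19 and *Acad10* at 1.10. Of the 32 pairs of neighbours in this order, 24 overlapped in their control samples, and the first pair, *Acadl* and *Phyh*, did not. In Cpt1bcKO *Acadl* again came first, at 3724 ± 193 per kilobase, followed by *Acaa2* at 1727 ± 366 and *Phyh* at 1578 ± 525, whose order was the reverse of that in the controls but within their spread. Exon lengths come from GENCODE vM21, which may differ from the annotation used for counting.

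**Figure D4:**
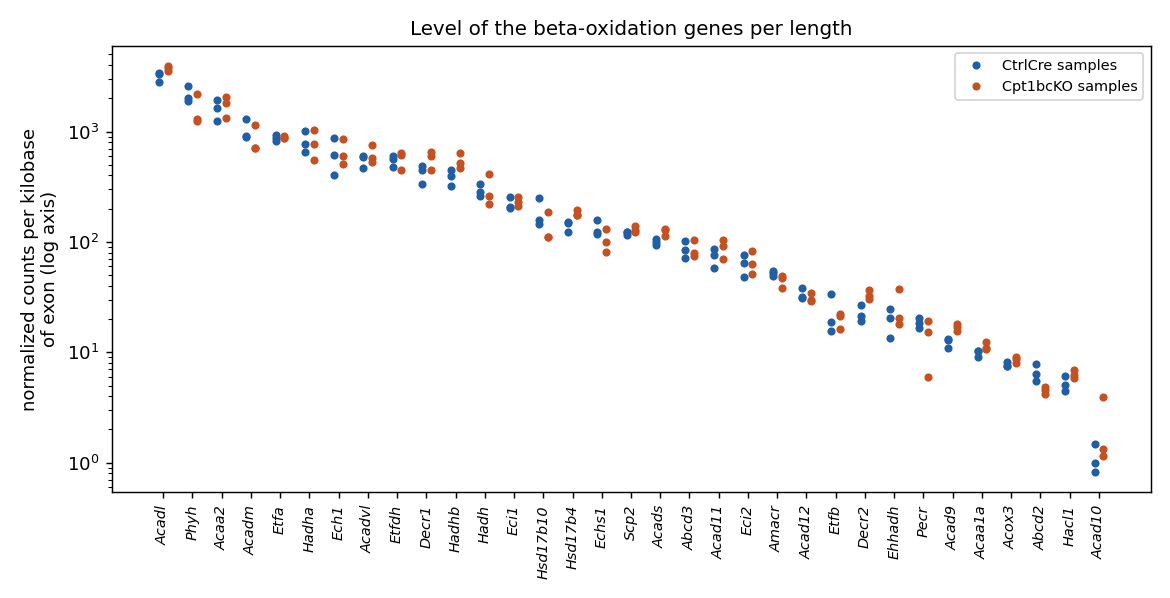
Normalized counts per kilobase of exon (log axis) of the 33 β-oxidation genes, in the order of the CtrlCre mean; each point is 1 sample, blue for CtrlCre and orange for Cpt1bcKO. The order runs from *Acadl* at 3163 to *Acad10* at 1.10 in CtrlCre, and the groups lie close together in most genes.

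Promoters were compared for sequence motifs because PPARα, the oestrogen-related receptors and NRF1 are known regulators of genes of oxidative metabolism. RefSeq promoter windows of 300 bases (250 before to 50 after the start, GRCm38.p6) were found for 27 of the 33 members, 28 windows in all, those of *Hadha* and *Hadhb* overlapping each other. The direct repeat bound by PPAR with its partner RXR, AGGTCA followed by any base and again AGGTCA, was in 0 of them on either strand, beside 0.0396% of 32851 windows, and the oestrogen-related receptor element TCAAGGTCA was also in 0, beside 0.423%. The single half-site AGGTCA, which is part of both longer motifs, was in 5 windows of the members (16.3% of all windows held it). The NRF1 letters, GCGC followed by any base and TGCGC, were in 5 (4.6% of all), CCAAT in 11 (37.4% of all) and the GC box GGGCGG in 20 (35.7% of all). These are letter matches within a short window and say nothing about sites elsewhere.

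The stretches before the starts of *Acadl*, *Acads*, *Acaa1a* and *Decr2* are shown as further members whose groups did not overlap. Each is read on the strand of its gene and holds no annotated exon, and capitals mark GGGCGG and CCAAT on either strand. They lie at chr1:66863310-66863559 for *Acadl* with 4 GC boxes and at chr5:115119347-115119596 for *Acads* with 1. For *Acaa1a* the stretch is chr9:119341160-119341293, with 3 GC boxes and 2 CCAAT boxes. For *Decr2* it is chr17:26090338-26090414, with 0 of either. This *Decr2* stretch is only the far upstream end of its promoter window. The whole window (chr17:26090115-26090414) held 3 GC boxes and 0 CCAAT boxes, so *Decr2* is among the windows counted above with a GC box.
Acadl: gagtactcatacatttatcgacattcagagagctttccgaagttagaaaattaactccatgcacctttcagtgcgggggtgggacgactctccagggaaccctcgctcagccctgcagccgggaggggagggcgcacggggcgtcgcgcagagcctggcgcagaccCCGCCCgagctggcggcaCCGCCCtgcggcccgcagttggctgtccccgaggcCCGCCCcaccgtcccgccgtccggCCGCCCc
Acads: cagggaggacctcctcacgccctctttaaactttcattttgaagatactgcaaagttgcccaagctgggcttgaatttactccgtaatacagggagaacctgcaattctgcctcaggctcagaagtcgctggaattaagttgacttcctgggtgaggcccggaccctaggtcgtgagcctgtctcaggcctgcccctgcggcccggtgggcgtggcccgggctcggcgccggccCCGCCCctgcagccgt
Acaa1a: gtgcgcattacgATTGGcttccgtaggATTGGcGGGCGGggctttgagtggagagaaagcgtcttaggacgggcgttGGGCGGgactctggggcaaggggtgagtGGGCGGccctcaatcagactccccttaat
Decr2: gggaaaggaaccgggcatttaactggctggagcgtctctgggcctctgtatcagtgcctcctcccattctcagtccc

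Further genes around the pathway were counted in 5 lists, at an unadjusted *P* below 0.05, a threshold that 6.66% of all genes passed as higher and 7.22% as lower. In the list of acyl-CoA activation and the carnitine shuttle without *Cpt1b*, 1 of 10 tested genes was higher and 0 were lower. Among 11 tested genes of further acyl-CoA oxidation, 4 were lower. *Acadsb*, the short/branched-chain dehydrogenase of isoleucine breakdown, was at 1511, 1318 and 1327 in CtrlCre and at 925, 576 and 643 in Cpt1bcKO, and fell by 0.98 on the log2 scale (adjusted *P* = 0.0259), the only adjusted call in these lists. Without Cpt1bcKO sample 1 its adjusted *P* was 0.00328 at a log2 fold change of −1.18, and with any other single sample left out it was 0.0833 to 0.158 at −1.02 to −0.84. Of 11 PPARα targets outside β-oxidation, 3 were higher and 0 lower at the unadjusted threshold and 0 passed an adjusted *P* of 0.05. The median of that list was 0.58 on the log2 scale, beside −0.0013 over all genes. Its summed level was 12365 to 19226 normalized counts in CtrlCre and 40550, 20779 and 13408 in Cpt1bcKO samples 1 to 3, so that sample 1 stood far above the rest and sample 3 lay within the control range. Of 12 regulators 1 was higher, and of 15 peroxisome biogenesis genes 0 passed in either direction.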

How the data were processed

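RNA of isolated adult CMs was sequenced from 3 CtrlCre and 3 Cpt1bcKO samples, grouped by their titles. Per the submitters' processing notes and the study's methods, FastQC 0.11.8, Trimmomatic 0.36, STAR 2.5.4b (mm10, GRCm38.p5), featureCounts 1.6.0 and DESeq2 1.14.1 were used, and the counting kept only reads assigned to 1 gene and 1 place in the genome. The library kit keeps strand. The annotation release and whether counting used strand are not given in the sources used here. The deposited values are a score, normalized counts that the authors scaled and rounded to whole numbers, so no count model was applied and raw depth is not known. The spacing of the values corresponded to an estimated 14900000 to 24500000 reads per library, weakly resolved for Cpt1bcKO sample 2. The table's columns of the authors' own means, fold changes and *P* values were not used, and samples of other experiments of the study were not analysed here.

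Genes with at least 10 in at least 3 samples (11364) were tested 2-sided with limma 3.58.1 (R 4.3.3; lmFit, eBayes with trend) on log2(value + 1), with Benjamini–Hochberg adjustment over all of them. The fit was also run on simulated counts with independent samples and a single dispersion, simpler than these data. No result here rests on that run. Ratios were tested by exact permutation over samples. Figures were drawn with matplotlib 3.10.9, and tables with pandas 2.3.3 (Python 3.11.15). The labels do not say that samples are separate animals, whereas the study gives 3 mice per genotype for an analysis of these differentially expressed genes. Members and lists were chosen with earlier results of these data known. All 33 members are named, with full values for those with an unadjusted *P* below 0.05 or groups without overlap and for the 10 highest per kilobase. The 15 alternatives changed scaling, filter, pseudocount, variance model, pairing or samples. One result of the further gene lists is not reported here.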

Additional observations from a re-analysis of the deposited data

How the results depend on the processing

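With 3 samples a group, the 95% interval of a log2 fold change ran from −0.27 to 0.29 at its narrowest (*Etfa*) and from −1.51 to 0.35 at its widest (*Pecr*), a gene of small counts. Of the 32 tested members, 22 kept their sign in every alternative and 10 did not. The number higher at an unadjusted *P* below 0.05 (4) became 7 with scaling to the total without mitochondrial and ribosomal RNA (10.9% of all genes), 2 with 1 prior variance (6.91%) and 8 with the replicate block (9.44%), and 0 to 6 when 1 sample was left out (3.94 to 8.95%). The number lower (0) became 1 with no filter (5.89% of all genes), 1 with 1 prior variance (6.06%), 4 with the block (11.3%), 4 in samples 2 and 3 alone (9.51%), and 0 to 4 with 1 sample left out (4.88 to 10.9%). At an adjusted *P* below 0.05 the number (0) became 1 in samples 2 and 3 alone and 0 to 1 with 1 sample left out, in both cases *Phyh*, and was 0 at an adjusted *P* below 0.1. Members without overlap (8) became 16 in samples 2 and 3 alone and 8 to 14 with 1 sample left out, while the share over all genes rose from 18.7% to 47.2% and to 24.9 to 37.5%. The median fold change of all tested members ranged from −0.016 to 0.19 with 1 sample left out. Over all genes, the 178 calls became 41 with 1 prior variance, 603 with the block and 40 (without Cpt1bcKO sample 2) to 305 (without Cpt1bcKO sample 1), and the 1578 at an unadjusted *P* below 0.05 ranged from 972 to 2208 with 1 sample left out and were 2362 with the block. The further lists (6 higher, 4 lower, 1 adjusted) became 3 higher with a filter of 50 and 3 with 1 prior variance. Their adjusted calls became 0 with total scaling, 0 with 1 prior variance and 3 in samples 2 and 3. With 1 sample left out they ranged over 3 to 10, 4 to 8 and 0 to 3. Total scaling moved the median of all genes to 0.11 and gave 1221 higher and 500 lower calls at an unadjusted *P* below 0.05 instead of 757 and 821. It turned the log2 fold changes of *Acad12* (0.00085), *Etfb* (0.0020), *Hadha* (0.036), *Hadh* (0.10) and *Abcd3* (0.11) positive, all at or below that shift. Recomputed median-of-ratios factors did so for *Hadh* (0.036) and *Abcd3* (0.043). Leaving out 1 sample gave ranges that crossed 0 for *Abcd3* (−0.15 to 0.12), *Acaa2* (−0.072 to 0.28), *Ech1* (−0.19 to 0.35), *Eci2* (−0.11 to 0.24), *Etfa* (−0.036 to 0.052), *Etfb* (−0.33 to 0.21), *Etfdh* (−0.057 to 0.20), *Hadh* (−0.27 to 0.18), *Hadha* (−0.30 to 0.16) and the *Etfa* to *Etfb* ratio (−0.25 to 0.39). Except where stated, the cause was not tested.

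The labels give same-numbered samples only a number in common, although sample 1 of each group also shared the *Xist* and *Ddx3y* pattern. Their deviations correlated at 0.376, 0.255 and 0.0684, against −0.329 to 0.147 for other pairs, and CtrlCre sample 3 correlated best with Cpt1bcKO sample 2. Deviations were taken from the mean of each group and so cancel within it. Positive values for some pairs therefore go with negative values for others, and the contrast is partly built in. With the replicate block, 3 of the 32 members passed an adjusted *P* of 0.05 in limma, beside 5.31% of all genes (1.57% without the block), namely *Hadhb* (0.0223), *Decr1* (0.0361) and *Phyh* (0.0396), and the further lists gave 12 higher, 8 lower and 8 adjusted calls.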
